A study of Mus musculus with 24 samples.

Results

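Uncoupling proteins and mitochondrial solute carriers were followed in mouse liver as 10 genes of 17537 listed above 0 in at least 1 library. They are Ucp2, Ucp3, Slc25a1, Slc25a10, Slc25a25, Slc25a30, Slc25a33, Slc25a34, Slc25a42 and Slc25a47. The list was chosen by gene symbol, and Slc25a25 was picked for its difference between the combination and the DEHP group, so its levels with DEHP are described here without a test. Of the 10, 9 passed the filter on low values (a level of 1 FPKM reached by 6 libraries or more, a condition 10697 genes met) and Ucp3 did not.

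The SLC25 family carries metabolites, nucleotides, cofactors and ions across the inner mitochondrial membrane, and the uncoupling proteins belong to it. In liver these carriers link the citric acid cycle to fatty acid and glucose synthesis in the cytosol, bring acylcarnitines in for β-oxidation, and move the nucleotides and cofactors that the matrix enzymes need. DEHP, di(2-ethylhexyl) phthalate, is a plasticiser whose metabolite activates the nuclear receptor PPARα in rodent liver, and PPARα is known to raise Ucp2 transcripts there.

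Whole liver RNA was sequenced from gavaged C57BL/6 mice, all male and of 20 to 30 g, as 24 libraries, 6 in each of 4 groups. The combination group received DEHP at 2500 mg/kg body weight together with ethanol at 1 g/kg, the DEHP group the same DEHP dose alone, the ethanol group the same ethanol dose alone, and the vehicle group 0.5% CMC. CMC appears in the titles of the vehicle libraries only, and the labels give neither the length of treatment nor the hour of collection. They speak of 12 mice per group and tie none of them to a library, so p-values measure the spread between these libraries, which may be technical.

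Libraries held 7324793 to 8016662 expected counts each. Transcripts of hepatocytes dominated in all of them, with 10 hepatocyte markers summing to 50730 to 55656 FPKM in combination livers, 50954 to 57607 FPKM in DEHP livers, 73333 to 87308 FPKM in ethanol livers and 68540 to 84276 FPKM in vehicle livers. Of these 10 markers, 9 fell with DEHP against vehicle, beside 11.6% of all genes, and 9 with the combination against vehicle, beside 17.4%. The libraries of combination replicate 6 and vehicle replicate 1 stood apart: 20 skeletal muscle markers summed to 6406 FPKM in combination replicate 6 and to 8695 FPKM in vehicle replicate 1, against 1.87 to 9.37 FPKM in the other 22 libraries. DEHP replicate 6 held pancreatic transcripts (8 markers, 551 FPKM, against at most 38.2 FPKM elsewhere), and leaving it out moved no member across the threshold. Every muscle marker was above all other libraries in both muscle-bearing libraries. Some counts of called genes and some single results are therefore also given without them. The remaining results rest on all 24 libraries.

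With DEHP, the members moved in both directions. Ucp2 rose 7.41-fold, the dicarboxylate carrier Slc25a10 rose 1.90-fold and the citrate carrier Slc25a1 rose 1.22-fold against vehicle, whereas the liver carrier Slc25a47 fell to 0.566 times the vehicle level. With ethanol alone Slc25a1 rose, and Slc25a47 and Slc25a34 fell. A gene was called at a Benjamini-Hochberg adjusted p below 0.05 in edgeR's quasi-likelihood test, fitted over all 10697 genes.

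In DEHP against vehicle, 3 of 8 members tested rose, beside 14.4% of all genes tested, and 1 fell, beside 11.6%. In the combination against vehicle, 3 of 8 rose, beside 19.3% of all genes, and 1 fell, beside 17.4%. Ethanol against vehicle called 1 of 9 members higher, beside 14.2%, and 2 lower, beside 14.5%. The combination against ethanol called 2 of 8 higher, beside 15.1%, and 1 lower, beside 12.7%. The combination against DEHP called 0 of 8 members, in a comparison where edgeR called 13 genes (0.122% of those tested) and 1159 had an unadjusted p below 0.05; DESeq2 called 44. For the interaction, the ethanol change in the presence of DEHP minus that without it, 0 of 8 members were called, beside 6.41% of all genes. The median log2 change of the tested members was -0.03 with DEHP, -0.10 with the combination and 0.01 with ethanol, each against vehicle, and the medians over all genes were -0.02, -0.01 and -0.01. Scaling by library size alone, without TMM factors, moved the balance of all called genes: ethanol against vehicle then had 930 higher and 2061 lower (1524 and 1555 with the factors), the combination against ethanol 2198 and 915 (1620 and 1356), and the interaction 447 and 203 (355 and 331). These comparisons share groups, so their counts are not independent of each other. Without the 2 libraries that held muscle RNA the members called were as many, except that 1 more fell in each comparison of the combination with vehicle and with ethanol. Called either way in that fit, against vehicle, were 24% of all genes with DEHP, 34.9% with the combination and 25% with ethanol. The share was 28.7% in the combination against ethanol, 0.196% in the combination against DEHP and 4.56% for the interaction.

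**Figure D1:**
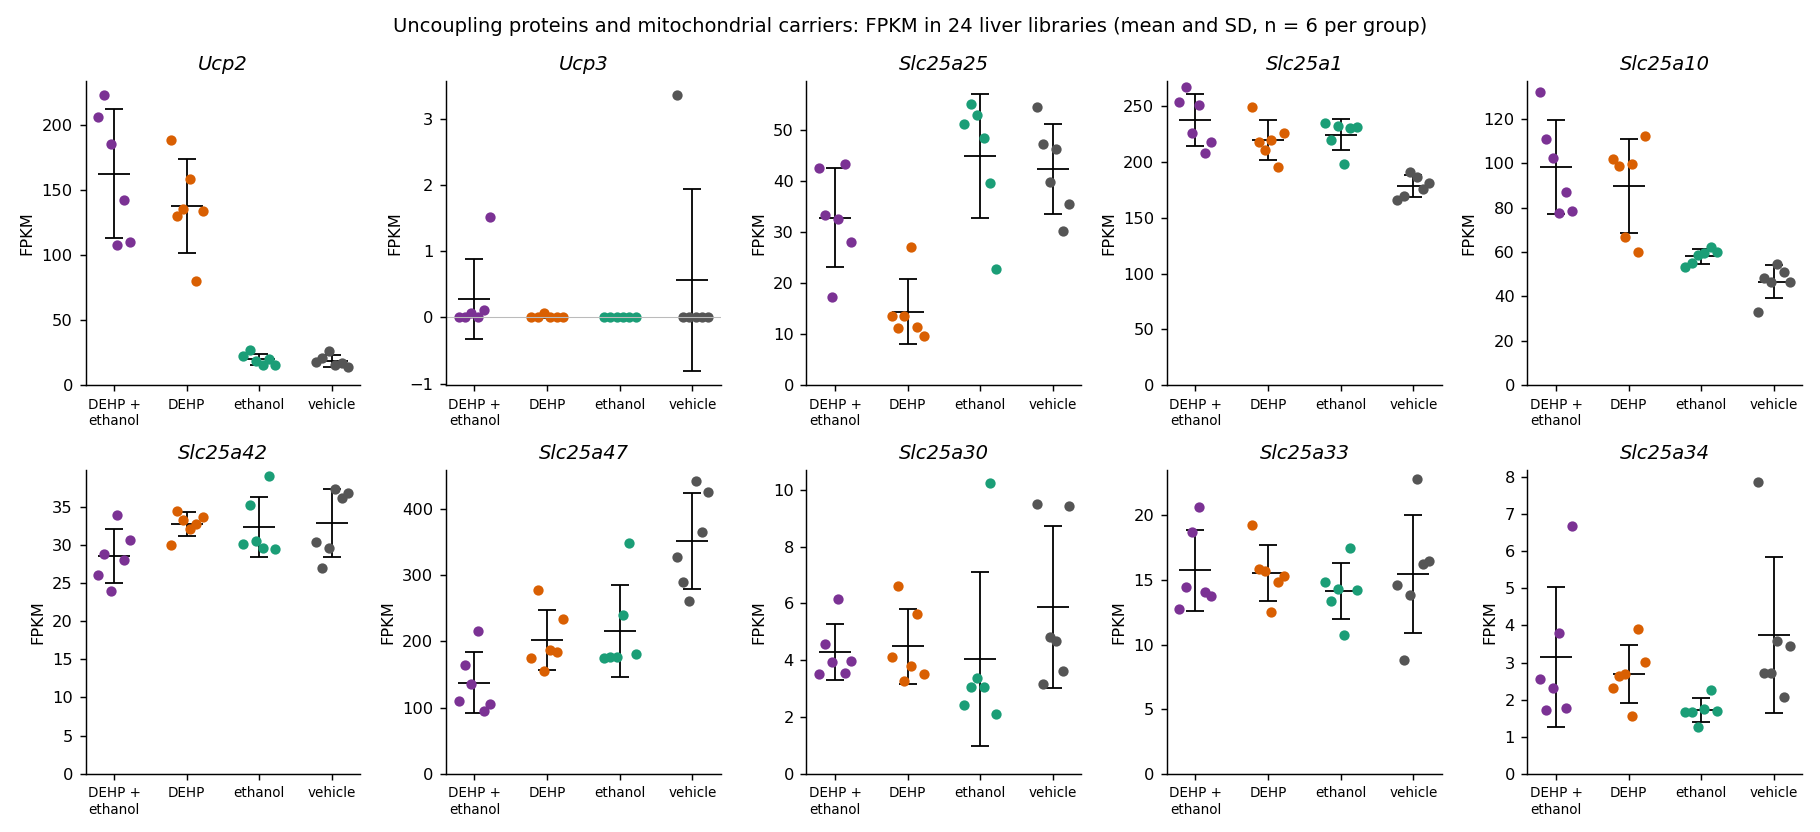
FPKM of the 10 members (y axis of each panel, starting at 0 or just below it where an error bar requires) in each of the 6 libraries of the combination, DEHP, ethanol and vehicle groups, left to right. Points are libraries and bars the mean and SD; Ucp2 separates the libraries with DEHP from those without it, and Ucp3 lies near 0 outside vehicle replicate 1 and combination replicate 6.

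Ucp2, an inner membrane carrier that exports dicarboxylates in exchange for phosphate, had the largest change of the members tested. It is gene 22228 at chr7:100493337-100499629 on the plus strand (RefSeq, GRCm38.p6). RefSeq's promoter table places its start at chr7:100493358, 21 bases inside that span. The 250 bases before this start are shown because Ucp2 carried the widest response; capitals mark the only match among 5 motifs searched on both strands. Ucp2, chr7:100493108-100493357, plus strand, 5′ to 3′:
Ucp2: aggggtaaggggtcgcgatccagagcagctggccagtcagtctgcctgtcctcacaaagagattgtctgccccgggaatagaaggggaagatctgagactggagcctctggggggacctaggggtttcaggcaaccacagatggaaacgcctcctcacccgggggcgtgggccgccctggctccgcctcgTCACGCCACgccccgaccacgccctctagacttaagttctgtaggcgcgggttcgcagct

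That match reads TCACGCCAC, a form of the sterol regulatory element (searched as TCACNCCAC), 60 to 52 bases before that start. The element was found in 1.05% of 32851 RefSeq windows of this length. The direct repeat bound by PPAR, searched by its consensus, was in 0.338% of them and in none of the 12 windows of the 10 members.

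Ucp2 measured 108, 164 and 223 FPKM in combination livers (lowest, median and highest of 6), 79.8, 135 and 188 FPKM in DEHP livers, 15.2, 19.2 and 26.8 FPKM in ethanol livers and 13.6, 17.25 and 26.0 FPKM in vehicle livers. All 12 libraries with DEHP were above all 12 without it. Against vehicle, Ucp2 rose by a log2 change of 2.89 ± 0.22 (SE) with DEHP (7.41-fold, 95% confidence interval 5.40 to 10.2; edgeR adjusted p = 4.18e-10) and by 3.14 ± 0.22 with the combination (8.84-fold, 6.43 to 12.1; edgeR adjusted p = 8.5e-11). The combination exceeded ethanol by 2.97 ± 0.22 (7.83-fold; edgeR adjusted p = 1.73e-10). The neighbouring groups were not told apart by the test, with 0.25 ± 0.20 for the combination against DEHP (fold interval 0.897 to 1.59, edgeR adjusted p = 0.65) and 0.18 ± 0.21 for ethanol against vehicle (fold interval 0.827 to 1.54, adjusted p = 0.567).

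In a whole tissue, a change in the share of a cell type and a change of RNA per cell cannot be told apart. Ucp2 is also known from macrophages, so 12 Kupffer cell and macrophage markers are set beside it. They summed to 196 to 277 FPKM in combination livers, 202 to 599 FPKM in DEHP livers, 154 to 291 FPKM in ethanol livers and 134 to 397 FPKM in vehicle livers, ranges that overlap. None of the 12 was called by edgeR in any comparison, and their median log2 change with DEHP against vehicle was 0.33. In each of the 4 groups the library with the highest marker sum also had the highest Ucp2 level. These were combination replicate 2 (277 and 223 FPKM), DEHP replicate 1 (599 and 188 FPKM), ethanol replicate 2 (291 and 26.8 FPKM) and vehicle replicate 3 (397 and 26.0 FPKM). The part of Kupffer cells and macrophages in the Ucp2 result was not tested.

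Among the 51 genes of the family found in these tables, the mean FPKM of Ucp2 ranked 5 in combination livers, 6 in DEHP livers, 19 in ethanol livers and 22 in vehicle livers. The summed FPKM of the family was 2630 ± 127 in combination livers, 2531 ± 147 in DEHP livers, 2155 ± 80.4 in ethanol livers and 2324 ± 134 in vehicle livers (SD, n = 6 each). FPKM is per length of transcript, so these levels can be set side by side between genes. Dnajb13, on the opposite strand, shares 305 exon bases with Ucp2 and averaged 0.107 to 0.177 FPKM over the groups; whether counting used strand is not stated.

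Among the genes whose log2 CPM followed Ucp2 most closely over the 24 libraries were Ehhadh (Pearson r = 0.982), the bifunctional enzyme of peroxisomal β-oxidation, and the zinc transporter Slc39a5 (0.980). Within groups, after each group's mean was taken off, the values were 0.629 for Ehhadh and 0.632 for Slc39a5. These libraries share their groups, which the first set of coefficients includes. Ehhadh averaged 2660 FPKM in combination livers, 2460 FPKM in DEHP livers, 101 FPKM in ethanol livers and 98.1 FPKM in vehicle livers.

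Ucp3 encodes the uncoupling protein known mainly from skeletal muscle and brown fat. It lies at chr7:100472991-100486432 (gene 22229), 6904 bases from Ucp2 on the same strand. Ucp3 reached 1.51 FPKM (26 expected counts) in combination replicate 6 and 3.36 FPKM (58 counts) in vehicle replicate 1, the 2 libraries that held muscle RNA. Combination replicate 6 also held the highest level of any library for 3 of 8 adipocyte markers, Adipoq (6.86 FPKM), Cfd (48.4 FPKM) and Retn (5.92 FPKM), and 2.87 FPKM of Ucp1, the uncoupling protein of brown fat, which was at most 0.09 FPKM elsewhere. Vehicle replicate 1 was the highest for none of the 8 and was at 0 for Ucp1. It did hold 1.73 FPKM of Adipoq, 18.5 FPKM of Cfd and 2.4 FPKM of Retn. The other vehicle libraries reached at most 0.13, 0.89 and 0.29 FPKM of them. Among vehicle libraries replicate 1 was also the highest for Plin1 (0.3 FPKM), Cidea (0.53 FPKM) and Lep (0.04 FPKM). It was the lowest vehicle library for the remaining markers, Adrb3 (1.33 FPKM) and Car3 (1009 FPKM). DEHP replicate 6, with Ucp3 at 0, held 4.75, 21.9 and 2.41 FPKM of Adipoq, Cfd and Retn. It was the highest library for Plin1 (1.73 FPKM) and Lep (0.12 FPKM). The part of muscle and of fat in the Ucp3 values was not tested. The 22 libraries other than combination replicate 6 and vehicle replicate 1 held 4 counts of Ucp3 in all. These were 0.11 and 0.06 FPKM in combination replicates 5 and 3, 0.06 FPKM in DEHP replicate 3, and 0 in 19. A count of 0 allows up to 3 counts, which is 0.167 to 0.18 FPKM over the libraries with no count. Such a limit covers counting error only.

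Ucp3 was not tested with the filter. With every gene above 0 kept, edgeR called it lower in ethanol than in vehicle (log2 change -6.26, adjusted p = 0.0442) and called its interaction (10.27, adjusted p = 0.0435). Without the 2 libraries these values were 0 and 1.28, both with an adjusted p of 1. The remaining 4 comparisons called it neither with nor without those libraries, with an adjusted p of 0.0705 to 0.683.

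**Figure D2:**
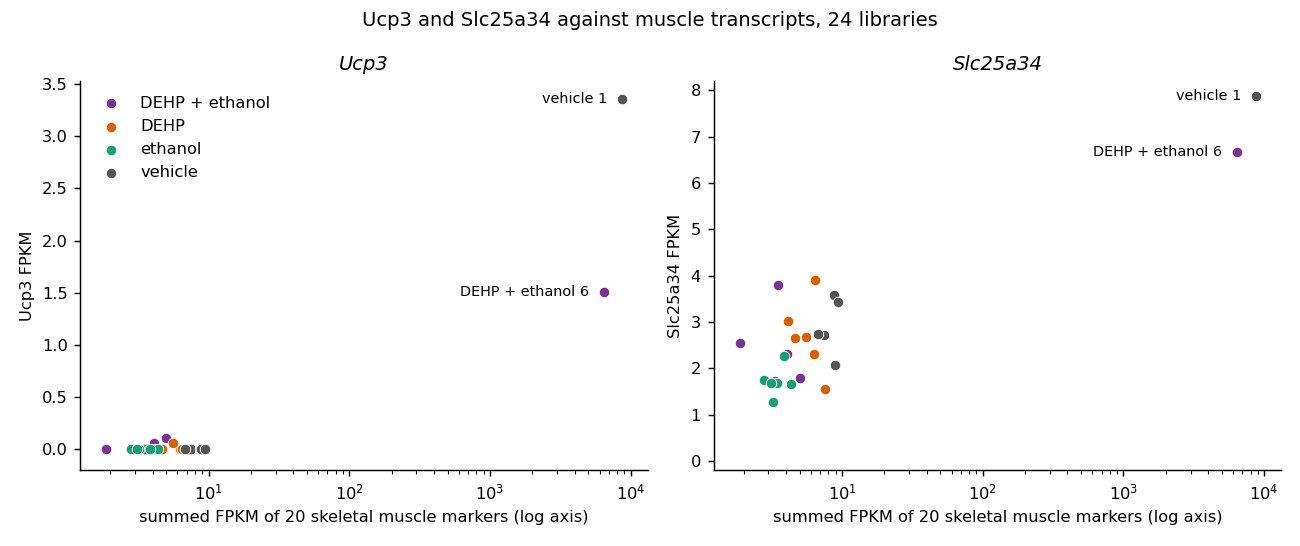
FPKM of Ucp3 (left) and Slc25a34 (right) on the y axis against the summed FPKM of 20 skeletal muscle markers (x axis, log scale) in the 24 libraries, coloured by group. Combination replicate 6 and vehicle replicate 1 lie far to the right and hold the highest value of both genes, while the other 22 libraries sum to 1.87 to 9.37 FPKM of muscle markers.

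Slc25a25, the calcium-dependent ATP-magnesium/phosphate carrier that adjusts the adenine nucleotide content of the matrix, is gene 227731 at chr2:32414487-32451470 on the minus strand. RefSeq gives it 3 starts with a window each. The window of the start nearest the end of the gene, 27404 bases inside its span, is shown because it alone holds a match of the 5 motifs, a cyclic AMP response element TGACGTCA (capitals) 150 to 143 bases before that start, which 1.55% of all windows hold. Slc25a25, chr2:32424067-32424316, minus strand, 5′ to 3′:
Slc25a25: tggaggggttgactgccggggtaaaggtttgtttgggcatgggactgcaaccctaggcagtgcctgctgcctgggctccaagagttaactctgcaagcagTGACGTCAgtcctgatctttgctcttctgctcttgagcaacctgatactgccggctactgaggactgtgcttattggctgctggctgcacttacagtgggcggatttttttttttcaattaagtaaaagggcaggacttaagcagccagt

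Slc25a25 measured 17.2, 32.9 and 43.2 FPKM in combination livers (lowest, median and highest of 6), 9.66, 12.4 and 27.2 FPKM in DEHP livers, 22.7, 49.75 and 55.1 FPKM in ethanol livers and 30.3, 43.1 and 54.6 FPKM in vehicle livers. All 6 DEHP livers lay below all 6 vehicle livers. The combination and DEHP ranges overlapped through DEHP replicate 4, at 27.16 FPKM, which stood apart from the other 5 DEHP libraries (9.66 to 13.58 FPKM). The 5 others all lay below the lowest combination library, replicate 3 at 17.2 FPKM.

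As a description of the values that chose it, the log2 change of Slc25a25 was 1.21 ± 0.24 (SE) for the combination against DEHP (2.31-fold) and -1.58 ± 0.24 for DEHP against vehicle (0.334-fold). It was -0.38 ± 0.23 for the combination against vehicle, -0.53 ± 0.23 for the combination against ethanol and 1.05 ± 0.33 for the interaction. The choice did not use ethanol against vehicle, where the change of 0.16 ± 0.23 did not pass (fold interval 0.800 to 1.55, edgeR adjusted p = 0.636). In ranks among the 51 family genes Slc25a25 stood at 17 in combination livers, 21 in DEHP livers, 13 in ethanol livers and 15 in vehicle livers.

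Naif1, which shares 379 exon bases with Slc25a25 on the opposite strand, averaged 0.59 FPKM in combination livers, 0.775 FPKM in DEHP livers, 0.778 FPKM in ethanol livers and 1.05 FPKM in vehicle livers. The genes most like Slc25a25 over the 24 libraries were 3110002H16Rik (r = 0.820, and 0.474 within groups), the neurturin gene Nrtn (0.815 and 0.253) and the kinase gene Wnk4 (0.772 and 0.071). Nrtn averaged 0.987 FPKM in combination livers, 0.257 FPKM in DEHP livers, 2.42 FPKM in ethanol livers and 1.84 FPKM in vehicle livers. For Nrtn and Wnk4 the coefficient within groups was far below that over all libraries, which includes the group means.

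Slc25a1 and Slc25a10 move the metabolites that carry acetyl units and reducing power out of mitochondria. Slc25a1, the citrate carrier (gene 13358, chr16:17925211-17928219, minus strand), rose in every treated group. It measured 208, 239 and 268 FPKM in combination livers (lowest, median and highest of 6), 195, 219 and 250 FPKM in DEHP livers, 199, 231 and 235 FPKM in ethanol livers and 166, 179 and 191 FPKM in vehicle livers. Each treated group lay wholly above vehicle.

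The log2 change of Slc25a1 against vehicle was 0.41 ± 0.08 with the combination (edgeR adjusted p = 0.000509), 0.29 ± 0.08 with DEHP (edgeR adjusted p = 0.0146) and 0.40 ± 0.08 with ethanol (1.32-fold; edgeR adjusted p = 0.00134). All 3 passed under every alternative tried, with changes of at least 0.24. The 3 treated groups overlapped: the combination differed from DEHP by 0.12 ± 0.08 (edgeR adjusted p = 0.602) and from ethanol by 0.01 ± 0.08 (edgeR adjusted p = 0.958). The interaction of -0.28 ± 0.12 did not pass (edgeR adjusted p = 0.155).

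Slc25a10, the dicarboxylate carrier that exchanges malate and succinate for phosphate (gene 27376, chr11:120491837-120501161, plus strand), rose where DEHP was given. It measured 77.7, 94.9 and 132 FPKM in combination livers, 60.2, 99.2 and 112 FPKM in DEHP livers, 53.2, 59.1 and 62.2 FPKM in ethanol livers and 32.9, 47.6 and 54.4 FPKM in vehicle livers (lowest, median and highest of 6 each). The combination lay wholly above ethanol and vehicle, and DEHP wholly above vehicle, but its lowest library overlapped the ethanol group.

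Against vehicle the change of Slc25a10 was 1.07 ± 0.15 with the combination (2.11-fold; edgeR adjusted p = 7.54e-06) and 0.93 ± 0.15 with DEHP (edgeR adjusted p = 7.48e-05). The combination exceeded ethanol by 0.69 ± 0.15 (edgeR adjusted p = 0.00129). Ethanol against vehicle gave 0.38 ± 0.15 and did not pass (edgeR adjusted p = 0.0611), although all 6 ethanol libraries were above the vehicle mean. It passed with DESeq2 and without vehicle replicate 4, DEHP replicate 5 or combination replicate 1, the adjusted p ranging from 0.044 to 0.159 over the alternatives. Vehicle replicate 1, which held muscle RNA, was the lowest vehicle library at 32.9 FPKM. Without the 2 muscle-bearing libraries the ethanol change was 0.28 ± 0.14 (edgeR adjusted p = 0.145). The DEHP change against vehicle was then 0.82 ± 0.14 (edgeR adjusted p = 0.000156). Combination and DEHP livers overlapped, with a change of 0.14 ± 0.15 (edgeR adjusted p = 0.763).

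Slc25a10 and Ucp2 had the highest correlation of any pair of members over the 24 libraries, at r = 0.851, and 0.550 within groups. Within groups other pairs of members had a higher coefficient, the highest being Slc25a42 and Slc25a47 at 0.670. The 250 bases before the Slc25a10 start are shown beside those of Ucp2 because Slc25a10 and Ucp2 had the highest coefficient over all libraries. They hold no match of the 5 motifs, which says only that those letters are not in this window. Slc25a10, chr11:120491587-120491836, plus strand, 5′ to 3′:
Slc25a10: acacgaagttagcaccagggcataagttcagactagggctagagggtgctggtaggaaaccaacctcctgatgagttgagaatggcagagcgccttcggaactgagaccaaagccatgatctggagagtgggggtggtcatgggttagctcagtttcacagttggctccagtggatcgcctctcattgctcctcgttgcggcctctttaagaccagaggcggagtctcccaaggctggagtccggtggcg

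Counted by groups that do not overlap, 3 of 8 members tested were separate in DEHP against vehicle (Ucp2, Slc25a1 and Slc25a10), beside 9.96% of all genes. In the combination against vehicle 4 of 8 were separate, those 3 and Slc25a47, beside 16.1%. Ethanol against vehicle separated 1 of 9 (Slc25a1), beside 10.7%, and the combination against ethanol 2 of 8 (Ucp2 and Slc25a10), beside 15.7%.

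**Figure D3:**
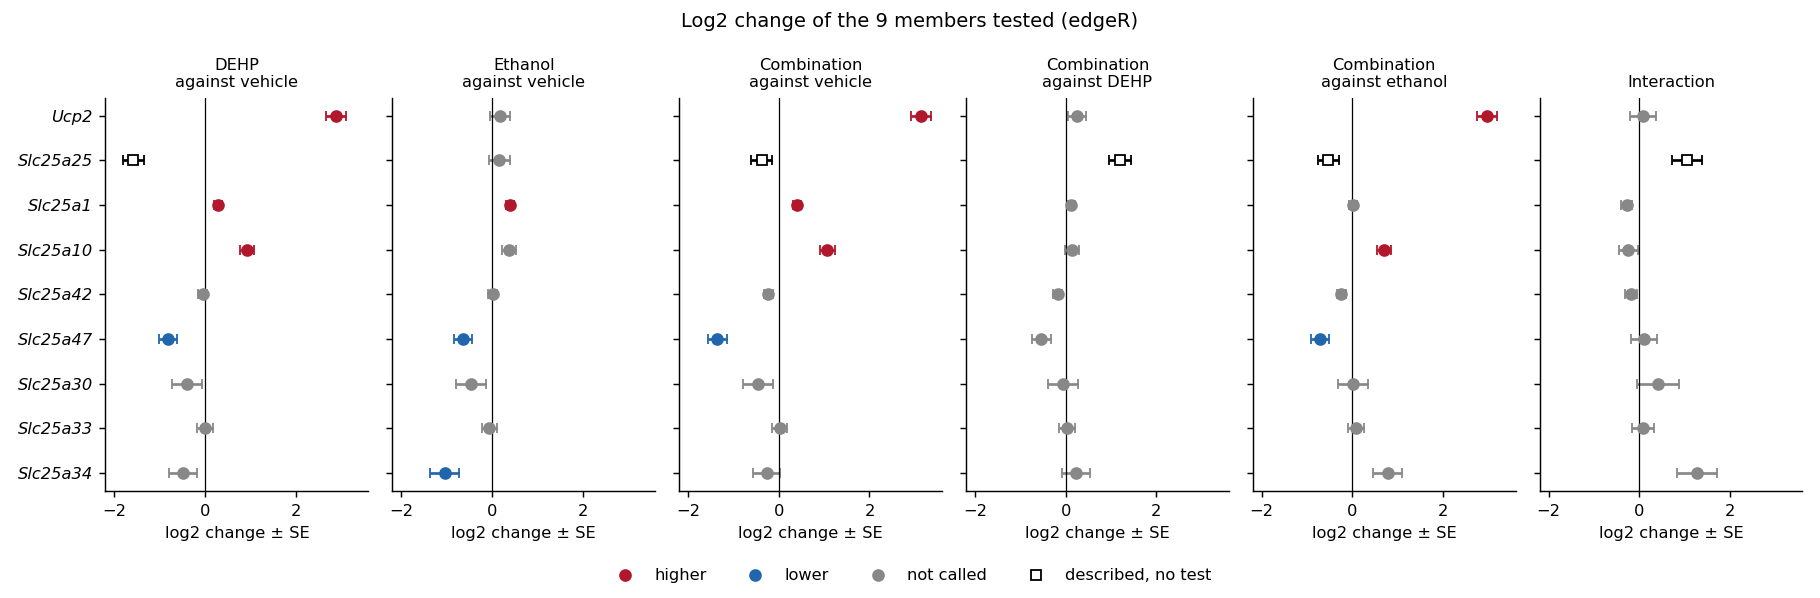
Log2 change (x axis) of the 9 members tested, with SE bars, in the 5 comparisons of groups and the interaction. Filled red and blue points passed edgeR's test as higher or lower, grey points did not, and open squares mark Slc25a25 where it was not tested; Ucp2 lies between 2.89 and 3.14 in every comparison of a group with DEHP to one without it.

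Slc25a47, a carrier known mainly from liver (gene 104910, chr12:108849833-108856815, plus strand), fell in every treated group. It measured 94.7, 123 and 215 FPKM in combination livers (lowest, median and highest of 6), 155, 185 and 277 FPKM in DEHP livers, 176, 179 and 349 FPKM in ethanol livers and 261, 347 and 442 FPKM in vehicle livers. The combination lay wholly below vehicle, while DEHP and ethanol each overlapped vehicle through their highest library. Its mean was the highest of all 51 family genes in vehicle livers (rank 1) and ranked 6 in combination livers, 5 in DEHP livers and 5 in ethanol livers.

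The log2 change of Slc25a47 against vehicle was -1.36 ± 0.21 with the combination (0.391-fold, 95% confidence interval 0.289 to 0.529; edgeR adjusted p = 1.91e-05). It was -0.82 ± 0.21 with DEHP (edgeR adjusted p = 0.00485) and -0.64 ± 0.21 with ethanol (edgeR adjusted p = 0.0224). The ethanol call was lost without vehicle replicate 4 or without ethanol replicate 2, 3 or 6, where the adjusted p reached at most 0.052. The combination was lower than ethanol by 0.72 on the log2 scale (-0.72 ± 0.21; edgeR adjusted p = 0.011), and its difference from DEHP, -0.54 ± 0.21, did not pass (edgeR adjusted p = 0.355). The interaction of Slc25a47 was 0.11 ± 0.29 (fold interval 0.706 to 1.64, edgeR adjusted p = 0.861).

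RefSeq's promoter table places the start of Slc25a47 at chr12:108851129, 1296 bases inside the span given above. The 250 bases before that start are shown because Slc25a47 fell with both agents, and they hold none of the 5 motifs. Slc25a47, chr12:108850879-108851128, plus strand, 5′ to 3′:
Slc25a47: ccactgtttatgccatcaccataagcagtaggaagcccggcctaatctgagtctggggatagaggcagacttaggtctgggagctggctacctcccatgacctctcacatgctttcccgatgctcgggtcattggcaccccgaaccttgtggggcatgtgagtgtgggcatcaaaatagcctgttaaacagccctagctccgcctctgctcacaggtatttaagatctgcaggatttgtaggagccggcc

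The genes most like Slc25a47 over the 24 libraries were Tob2 (r = 0.882, and 0.659 within groups), an antiproliferative factor, the corepressor Tle1 (0.863 and 0.589) and the zinc finger gene Zfp592 (0.862 and 0.562). Tob2 averaged 8.22 FPKM in combination livers, 9.86 FPKM in DEHP livers, 12.0 FPKM in ethanol livers and 17.3 FPKM in vehicle livers. Their coefficients stayed above 0.5 within groups.

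Slc25a42, which brings coenzyme A into the matrix in exchange for adenine nucleotides (gene 73095, chr8:70184340-70212281), changed little. It averaged 28.6 ± 3.49 FPKM in combination livers, 32.7 ± 1.54 FPKM in DEHP livers, 32.4 ± 3.97 FPKM in ethanol livers and 32.9 ± 4.44 FPKM in vehicle livers (SD, n = 6 each). The combination gave -0.23 ± 0.09 against vehicle (edgeR adjusted p = 0.0531) and -0.25 ± 0.09 against ethanol (edgeR adjusted p = 0.0506), both just short of the threshold. Of 33 alternatives, 11 called the first of these and 12 the second, including the fit without the 2 muscle-bearing libraries. Over the 24 libraries Slc25a42 followed Slc25a47, with r = 0.692, and 0.670 within groups.

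Slc25a33, a pyrimidine nucleotide carrier (gene 70556, chr4:149744036-149774267), averaged 15.7 ± 3.15 FPKM in combination livers, 15.6 ± 2.17 FPKM in DEHP livers, 14.2 ± 2.18 FPKM in ethanol livers and 15.5 ± 4.56 FPKM in vehicle livers (SD, n = 6 each). No comparison called it, and its changes lay between -0.06 and 0.08. The fold interval against vehicle was 0.794 to 1.30 with the combination, 0.779 to 1.27 with DEHP and 0.751 to 1.23 with ethanol. An antisense gene, Gm13068, shares 281 exon bases with it.

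Slc25a30, a close relative of the uncoupling proteins first described in mouse kidney (gene 67554, chr14:75757534-75787037), was low and was called in no comparison. It measured 3.51, 3.96 and 6.15 FPKM in combination livers (lowest, median and highest of 6), 3.27, 3.96 and 6.62 FPKM in DEHP livers, 2.09, 3.05 and 10.2 FPKM in ethanol livers and 3.17, 4.75 and 9.52 FPKM in vehicle livers. A single ethanol library, replicate 5, was above every other library. Ethanol against vehicle gave -0.47 ± 0.33 (edgeR adjusted p = 0.291), and -0.997 without ethanol replicate 5, where it passed (edgeR adjusted p = 0.0126). Over the remaining alternatives and that one the adjusted p ranged from 0.0126 to 0.562.

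Slc25a34, a carrier of the same family with no settled substrate (gene 384071, chr4:141618819-141623891), was lower with ethanol. It measured 1.72, 2.42 and 6.67 FPKM in combination livers, 1.55, 2.67 and 3.91 FPKM in DEHP livers, 1.26, 1.68 and 2.27 FPKM in ethanol livers and 2.06, 3.08 and 7.87 FPKM in vehicle livers (lowest, median and highest of 6 each). The highest combination value came from replicate 6 and the highest vehicle value from replicate 1, the libraries that held muscle RNA. Without them, combination livers averaged 2.43 ± 0.84 FPKM and vehicle livers 2.91 ± 0.62 FPKM (SD, n = 5 each).

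Ethanol against vehicle gave -1.05 ± 0.32 for Slc25a34 with all libraries (edgeR adjusted p = 0.0159). Without both muscle-bearing libraries it was -0.71 ± 0.23 and passed (edgeR adjusted p = 0.0256), whereas without vehicle replicate 1 alone it was -0.71 and did not (edgeR adjusted p = 0.0687). The interaction of 1.27 ± 0.44 did not pass (edgeR adjusted p = 0.0792), passed with DESeq2, and was 0.59 without both libraries (edgeR adjusted p = 0.3). The gene most like Slc25a34 over the 24 libraries was Tppp3 (r = 0.811, and 0.800 within groups). Next came Smyd1 (0.790 and 0.733), a methyltransferase of heart and skeletal muscle, and the calcium pump gene Atp2a2 (0.784 and 0.713). All these coefficients, also those within groups, include both muscle-bearing libraries, which held the highest Slc25a34 values. No coefficient without those libraries is given, so their part in these likenesses was not tested.

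The 2 muscle-bearing libraries exceeded the other 22 in 5 of the 51 family genes. Besides Ucp3 and Slc25a34 these were, chosen after their values were seen, Slc25a4, Slc25a12 and Slc25a36. The share of all genes that did so was not counted, so the 5 are not read as a result about the family. Slc25a4, the adenine nucleotide translocase of heart and skeletal muscle, measured 302 FPKM in combination replicate 6 and 376 FPKM in vehicle replicate 1, against 1.47 to 6.01 FPKM elsewhere. Slc25a12, the aspartate-glutamate carrier of muscle and brain, measured 14.8 FPKM in combination replicate 6 and 24.7 FPKM in vehicle replicate 1, against 2.92 to 6.01 FPKM elsewhere.

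The family beyond the members was read from 43 further genes, of which 41 were found and 30 tested. In DEHP against vehicle 8 rose, beside 14.4% of all genes, and 4 fell, beside 11.6%. In the combination against vehicle 9 rose, beside 19.3%, and 5 fell, beside 17.4%. In ethanol against vehicle 4 rose, beside 14.2%, and 5 fell, beside 14.5%. In the combination against ethanol 8 rose, beside 15.1%, and 0 fell, beside 12.7%, and in the combination against DEHP none was called, beside 0.122%. The falls with DEHP and with the combination, and both ethanol counts, were near the share over all genes. Their median log2 change was -0.03 with DEHP, 0.05 with the combination and 0.05 with ethanol, against medians of -0.02, -0.01 and -0.01 over all genes. Without the 2 muscle-bearing libraries 7 rose and 5 fell with DEHP, and 9 rose and 6 fell with the combination. With ethanol 4 rose and 4 fell in that fit, and in the combination against ethanol 6 rose and 2 fell. Called either way in that fit were 24% of all genes with DEHP and 34.9% with the combination. The share was 25% with ethanol and 28.7% in the combination against ethanol.

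Slc25a20, the carnitine-acylcarnitine carrier that feeds β-oxidation, rose with DEHP by 0.96 ± 0.12 against vehicle (edgeR adjusted p = 9.09e-07). It averaged 131 ± 15.3 FPKM in combination livers, 117 ± 20.5 FPKM in DEHP livers, 73.6 ± 6.17 FPKM in ethanol livers and 59.4 ± 7.62 FPKM in vehicle livers (SD, n = 6 each). The adenine nucleotide translocase Slc25a5 rose by 0.32 ± 0.08 (edgeR adjusted p = 0.00306), the outer membrane protein Mtch2 by 0.26 ± 0.06 and the glutathione carrier Slc25a39 by 0.35 ± 0.09 in DEHP against vehicle. The oxoglutarate carrier Slc25a11 was among the 5 smallest adjusted p of the combination against vehicle, with a rise of 0.42 ± 0.08 (edgeR adjusted p = 0.000324).

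The mitochondrial NAD carrier Slc25a51 fell in every treated group, like Slc25a47. It averaged 10.3 ± 1.86 FPKM in combination livers, 11.9 ± 3.22 FPKM in DEHP livers, 10.2 ± 2.64 FPKM in ethanol livers and 21.2 ± 4.46 FPKM in vehicle livers (SD, n = 6 each). Against vehicle its log2 change was -1.11 ± 0.18 with the combination (edgeR adjusted p = 3.01e-05), -0.93 ± 0.18 with DEHP (edgeR adjusted p = 0.000401) and -1.005 ± 0.18 with ethanol (edgeR adjusted p = 0.000265).

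The ornithine carrier Slc25a15, part of the urea cycle, fell in ethanol against vehicle. It averaged 95.8 ± 4.49 FPKM in combination livers, 103 ± 5.52 FPKM in DEHP livers, 73.8 ± 7.58 FPKM in ethanol livers and 112 ± 14 FPKM in vehicle livers (SD, n = 6 each), with a log2 change of -0.53 ± 0.08 for ethanol against vehicle (edgeR adjusted p = 4.8e-05). Its interaction of 0.44 ± 0.11 passed (edgeR adjusted p = 0.0226). The folate carrier Slc25a32 likewise fell with ethanol (-0.94 ± 0.17, edgeR adjusted p = 0.000335), with an interaction of 0.78 ± 0.24 (edgeR adjusted p = 0.0489) that 19 of 33 alternatives did not call. Slc25a28, an iron importer of mitochondria, rose with ethanol by 0.48 ± 0.12 (edgeR adjusted p = 0.00531). Slc25a4 also passed for the interaction (7.76, edgeR adjusted p = 0.016) and for the combination against ethanol (3.86, edgeR adjusted p = 0.0372). Without the 2 muscle-bearing libraries these were -0.18 (edgeR adjusted p = 0.825) and 0.14 (edgeR adjusted p = 0.727).

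**Figure D4:**
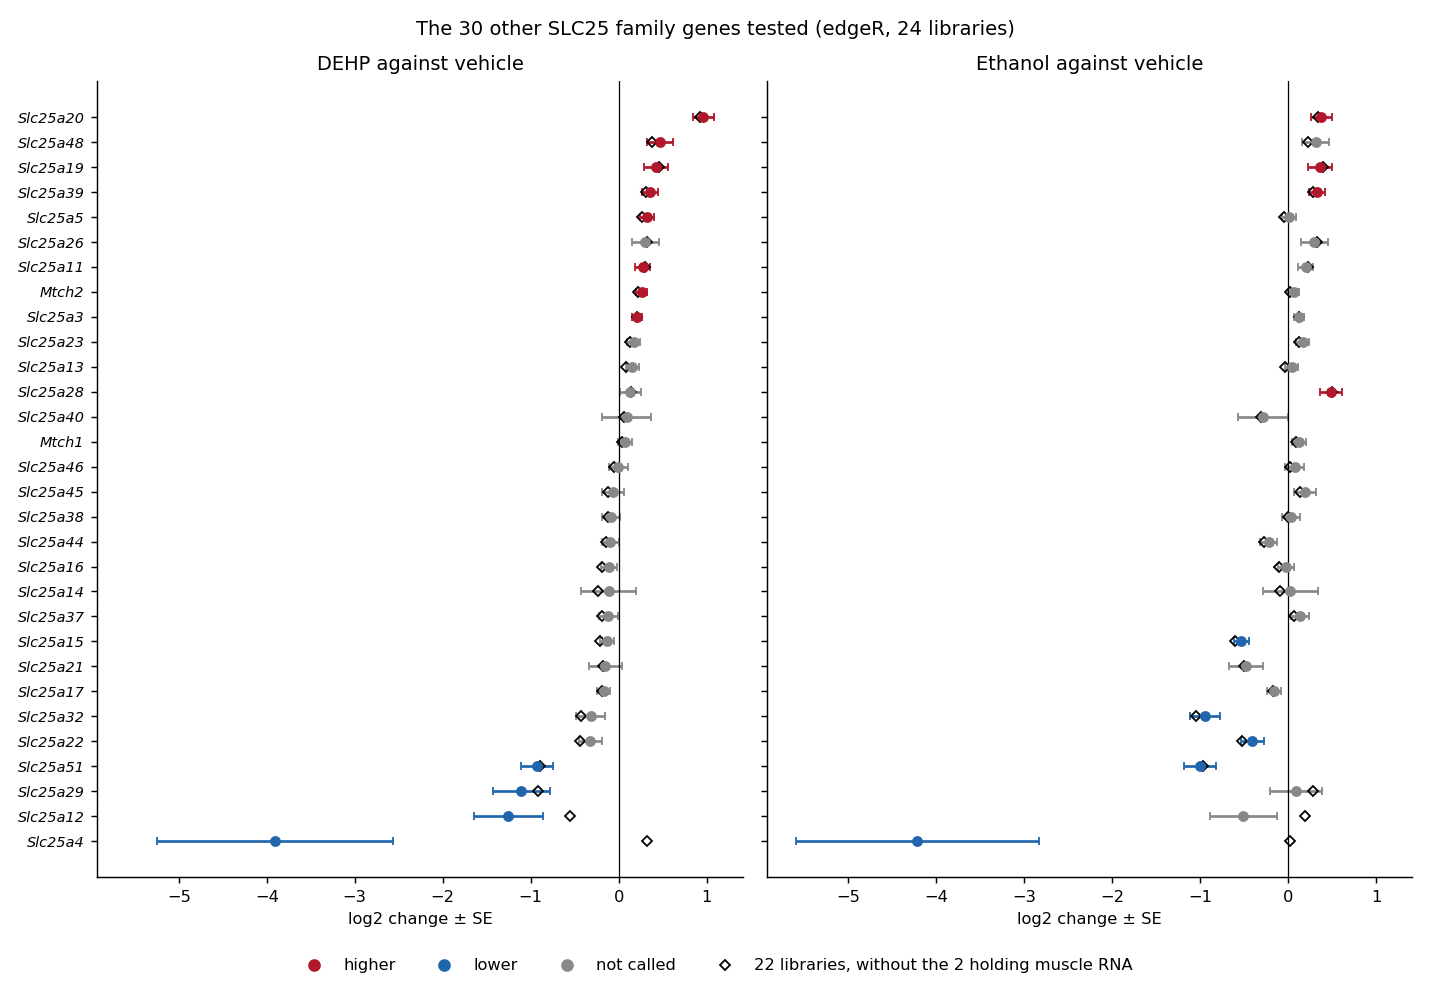
Log2 change (x axis) with SE of the 30 other SLC25 family genes tested, in DEHP against vehicle (left) and ethanol against vehicle (right), ordered by the DEHP change. Colours mark edgeR's calls and open diamonds the estimate without the 2 libraries that held muscle RNA; Slc25a20 rose most with DEHP, and the fall of Slc25a4 is present only with those 2 libraries.

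Most of the enzymes listed with the citrate, malate and aspartate carriers rose with DEHP. Of 15 tested, 12 rose in DEHP against vehicle, beside 14.4% of all genes. In the combination 12 each rose against vehicle, beside 19.3%, and against ethanol, beside 15.1%. In the same order 0 fell in any of these comparisons, beside 11.6%, 17.4% and 12.7%. Not called with DEHP were Acaca (0.41 ± 0.17), Got1 (0.21 ± 0.12) and Me2 (-0.41 ± 0.33), named after their values were seen. Their median log2 change was 0.40 with DEHP and 0.56 with the combination, against -0.02 and -0.01 over all genes. Without the 2 muscle-bearing libraries 8 rose with DEHP and 11 with the combination, against vehicle, and 0 fell. Of all genes 24% and 34.9% were called either way in that fit.

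Me1, the cytosolic malic enzyme that makes NADPH, averaged 253 ± 62.6 FPKM in combination livers, 194 ± 57.8 FPKM in DEHP livers, 71.8 ± 3.76 FPKM in ethanol livers and 68.5 ± 9.49 FPKM in vehicle livers (SD, n = 6 each). Its change was 1.89 ± 0.17 with the combination (edgeR adjusted p = 4.61e-09) and 1.48 ± 0.17 with DEHP (edgeR adjusted p = 2.95e-07). Mitochondrial malate dehydrogenase Mdh2 rose by 0.50 ± 0.10 with DEHP, the aspartate aminotransferase Got2 by 0.40 ± 0.08 and the cytosolic aconitase Aco1 by 0.29 ± 0.07, each against vehicle.

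With ethanol against vehicle, 0 of the 15 rose, beside 14.2% of all genes, and 2 fell, near the 14.5% of all genes. Acly, which splits exported citrate to acetyl-CoA, averaged 207 ± 60.1 FPKM in combination livers, 171 ± 44.9 FPKM in DEHP livers, 54.4 ± 7.99 FPKM in ethanol livers and 107 ± 41.6 FPKM in vehicle livers (SD, n = 6 each). Its change with ethanol against vehicle was -0.90 ± 0.21 (edgeR adjusted p = 0.00355). Acacb, the acetyl-CoA carboxylase at the mitochondrial surface, gave -0.47 ± 0.17 (edgeR adjusted p = 0.038), which 11 of 33 alternatives did not call. The interaction passed for both, at 1.19 ± 0.30 for Acly (edgeR adjusted p = 0.0188) and 0.81 ± 0.23 for Acacb (edgeR adjusted p = 0.0371). The Acacb interaction was not called under 18 of 33 alternatives.

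Of 17 genes of coenzyme A synthesis and breakdown, 5 rose in DEHP against vehicle, beside 14.4% of all genes. In the combination against vehicle 7 rose, beside 19.3%, and 0 fell in either comparison, beside 11.6% and 17.4%. In the combination against ethanol 6 rose, beside 15.1%, and 2 fell, near the 12.7% of all genes. Without the 2 muscle-bearing libraries 4 rose with DEHP and 6 with the combination, against vehicle. Of all genes 24% and 34.9% were called either way in that fit. Vnn1, the pantetheinase known as a PPARα target, averaged 82.6 ± 14.6 FPKM in combination livers, 65.2 ± 16.6 FPKM in DEHP livers, 12.1 ± 3.57 FPKM in ethanol livers and 9.96 ± 3.48 FPKM in vehicle livers (SD, n = 6 each). It rose by 2.69 ± 0.22 in DEHP against vehicle (edgeR adjusted p = 2.26e-09), and Coasy, the last enzyme of the synthesis, by 0.56 ± 0.07 (edgeR adjusted p = 1.04e-06). With ethanol against vehicle 2 of the 17 rose, near the 14.2% of all genes, namely Coasy (0.29 ± 0.07) and the vitamin transporter Slc5a6 (0.85 ± 0.16, edgeR adjusted p = 0.00041). Slc5a6 averaged 2.26 ± 0.32 FPKM in combination livers, 2.38 ± 0.35 FPKM in DEHP livers, 2.96 ± 0.71 FPKM in ethanol livers and 1.70 ± 0.26 FPKM in vehicle livers, and its interaction of -0.90 ± 0.22 passed (edgeR adjusted p = 0.0156).

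Of 15 tested genes of mitochondrial calcium uptake, pyruvate import and nucleotide supply, 9 rose and 1 fell with DEHP against vehicle, where 14.4% of all genes rose and 11.6% fell. With the combination 12 rose and 1 fell, beside 19.3% and 17.4%, and with ethanol 5 rose and 0 fell, beside 14.2% and 14.5%. Without the 2 muscle-bearing libraries the DEHP count was 5 higher and 1 lower, beside 24% of all genes called either way in that fit. Ppif, cyclophilin D of the permeability transition pore, rose with DEHP by 0.60 ± 0.09 (edgeR adjusted p = 2.33e-05) and Smdt1, a subunit of the calcium uniporter, by 0.48 ± 0.08. The smaller Ppif rise with ethanol (0.29 ± 0.09, edgeR adjusted p = 0.0176) was not called without TMM factors or with limma.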

How the data were processed

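Per the file headers, the authors deposited for each library an expected count (estimated reads per gene, not normalized) and an FPKM value (those counts scaled to transcript length and to assigned reads) for every gene above 0; 94.5% to 95.3% of the counts were whole numbers. The submitters' processing notes name Cuffdiff, mm10 and GRCm38; not given in the sources used here are the aligner, the counting program and whether strand was used. Coordinates and promoter sequences are RefSeq's, build GRCm38.p6; exon overlaps come from GENCODE. An absent gene was taken as 0. Each library was assigned to its group from its title.

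Expected counts were rounded and tested with edgeR 4.0.16 in R 4.3.3 (TMM factors, a model with 4 group means and 20 residual degrees of freedom, quasi-likelihood F test), with Benjamini-Hochberg adjustment over 10697 genes. Standard errors are the unshrunken log2 change divided by the square root of F. Alternatives used DESeq2 1.42.0 and limma 3.58.1 on log2(FPKM + 1) and log2(FPKM + 0.1), other scaling and filters, a replicate block, and libraries left out. No 2 libraries of a group agreed within sampling noise. The script was tested on simulated data.

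The members and gene lists were chosen with earlier results of these data known. Named are the members, up to 5 called genes of the further family and up to 4 of each other list with the smallest adjusted p in a comparison, and the 3 genes most correlated with Ucp2, Slc25a25, Slc25a47 and Slc25a34; of those the text gives a part, and some are not reported here. Motifs searched on both strands of the 250 bases before each start were the PPAR direct repeat, TCACNCCAC, CACGTG (E-box), TTATGTAA (D-box) and TGACGTCA; the E-box was in 6.02% of all windows and in those of Slc25a1 and Slc25a33, and the D-box in 0.819% and in no member's. Matches on overlapping letters of 2 motifs were allowed.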

Additional observations from a re-analysis of the deposited data

Results flagged for a closer look

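In 7 of 40 groups of 6 libraries (10 members in 4 groups), the highest or lowest library lay apart from the others by Dixon's criterion for 6 values. Chance flags about 1 group in 20 where values are normally distributed. That rate does not hold for Ucp3, which was at 0 in most libraries. The ethanol group of Ucp3, all at 0, could not be flagged. Ucp3 was flagged for combination replicate 6 (1.51 FPKM), DEHP replicate 3 (0.06 FPKM, a single count) and vehicle replicate 1 (3.36 FPKM). Slc25a34 was flagged for vehicle replicate 1 (7.87 FPKM), and Slc25a10 for the same library (32.88 FPKM, below the other vehicle libraries). Slc25a25 was flagged for DEHP replicate 4 (27.16 FPKM) and Slc25a30 for ethanol replicate 5 (10.25 FPKM).

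The ethanol change differed with and without DEHP, by edgeR's interaction term, for 6 genes of the further lists. They were 3 of 30 tested in the further family and 2 of 15 in the citrate, malate and aspartate list. The coenzyme A list gave 1 of 17 and the calcium, pyruvate and nucleotide list 0 of 15, beside 6.41% of all genes. Slc25a4 had an interaction of 7.76 on the log2 scale, which was -0.18 without the 2 libraries that held muscle RNA. Slc25a15 had 0.44, Slc25a32 0.78, Acly 1.19, Acacb 0.81 and Slc5a6 -0.90. Of 33 alternatives, 19 did not call the interaction of Slc25a32 and 18 did not call that of Acacb. The causes of these differences were not tested.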

How the results depend on the processing

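Over 33 alternatives, 49 tested results of 9 members gave 1512 values of the same direction and side of the threshold (or within the replicate spread), 34 that newly passed, 5 that no longer passed, 66 of uncalled changes near 0 that moved or changed sign, and 0 called changes that turned round. The 5 lost calls were Slc25a34 (1) and Slc25a47 (4) in ethanol against vehicle. Of 70 results of other named genes, 70 values lost their call and 1 turned round: the Slc25a4 interaction was -0.18 without the muscle-bearing libraries. Ucp3 reached at most 0.11 FPKM in 22 libraries and 3.36 FPKM in all 24.

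The 13 genes called between combination and DEHP were 1 without a filter, 44 with DESeq2, 7 and 6 with limma (pseudocounts of 1 and 0.1) and 21 without the muscle-bearing libraries; leaving out 1 library gave 0 to 18, with 0 without combination replicate 1, 2 or 5 or DEHP replicate 2 or 3, 6 without combination replicate 3 or DEHP replicate 5, and 4 without DEHP replicate 6. The other counts stayed within 1.5 times. The replicate block gave 5 calls between combination and DEHP. The deviations of same-numbered libraries from their group means correlated between -0.215 and 0.211, so no pairing by number was seen. Whether libraries shared a batch was not tested. The cause of the shifts in the number of calls was not tested either. For a library with no count of Ucp3, depth allows a level of up to 0.167 to 0.18 FPKM.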
